A study of Mus musculus with 9 samples.

Results

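A set of 6 genes of the embryonic mouse midbrain are described here across 3 *Nkx2.9* genotypes: the homeobox genes *Evx1* and *Evx2*, the antisense RNA *Evx1os*, the corepressor genes *Skor1* and *Skor2*, and the progenitor homeobox gene *Dbx1*. They are 6 of the 51912 genes in the deposited table, found there by their Ensembl identifiers. They were chosen by their measured values, since their levels in the KO libraries lay apart from those in the WT libraries. Their differences between KO and WT are therefore given as a description, with no test.

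The study asked what loss of the homeobox gene *Nkx2.9* does to the developing midbrain. RNA was taken from dissected midbrains of C57Bl/6 embryos at E14.5, and a pair of midbrains was pooled in each library. The groups were *Nkx2.9*+/+ (WT), *Nkx2.9*LacZ/+ (Het) and *Nkx2.9*LacZ/LacZ (KO), with 3 libraries each and no further treatment or allele. In the LacZ allele the first exon of the gene is replaced by a nuclear LacZ in every cell of the embryo. The columns of the table show a genotype and nothing that numbers the libraries within it, so each library is called by its column: 1 to 3 are KO, 4 to 6 Het and 7 to 9 WT. Nothing states that the 3 libraries of a genotype came from separate litters, and p-values measure only the spread between these libraries.

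In the developing neural tube, *Dbx1* is made by dividing progenitors at a fixed position along the dorsoventral axis, and in the spinal cord these progenitors give rise to the V0 interneurons, many of which send their axons across the midline. Newly born neurons of the ventral V0 class switch on *Evx1* and *Evx2*, transcription factors that keep them from taking the fate of the neighbouring V1 neurons. *Skor1* and *Skor2* encode transcriptional corepressors of the Ski family. *Skor1* is best known as a partner of the homeodomain protein Lbx1 in dorsal spinal cord neurons, and *Skor2* for its role in cerebellar Purkinje cells.

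*Evx1* and *Evx1os* share a locus, and this bears on how their reads can be read. In the GRCm38 annotation *Evx1* lies on chromosome 6 from 52313498 to 52318378 on the plus strand, and *Evx1os* from 52308389 to 52314832 on the minus strand. The genes overlap over 1335 bases. Their exons overlap only at chr6:52313498-52313570, which is 73 bases or 2.54% of the exon bases of *Evx1* and 2.42% of those of *Evx1os*. The strand setting of the counting is not stated, so reads within those 73 bases cannot be assigned to either gene with certainty. The first exon of *Evx1os* lies in the first intron of *Evx1*, and its second exon runs across the start of *Evx1*.

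**Figure D1:**
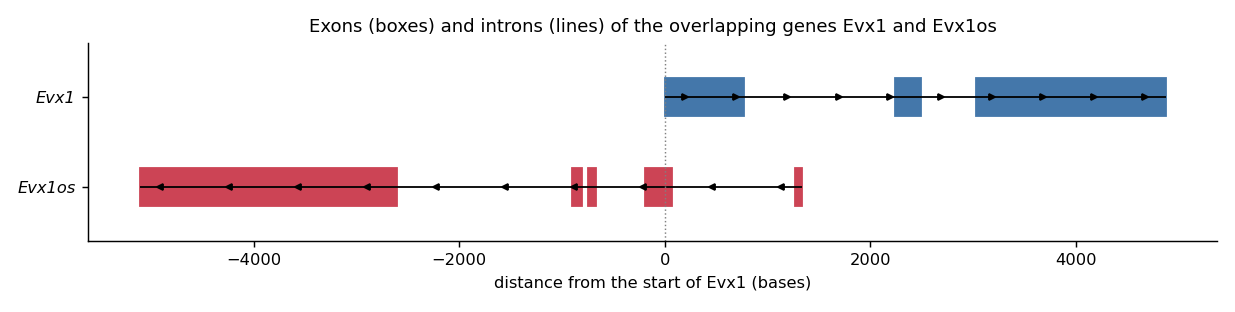
Exons (boxes) and introns (lines) of *Evx1* and *Evx1os* by distance in bases from the start of *Evx1*, with arrowheads along the direction of transcription. The exons of the 2 genes meet only in the 73 bases after the start of *Evx1*.

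The 250 bases before the annotated start of each gene are shown because the start of each lies within the other. Both stretches are RefSeq windows of GRCm38.p6, read 5′ to 3′ on the strand of the gene. The *Evx1* stretch is chr6:52313248-52313497 on the plus strand, and its capitals mark the 194 bases that also belong to an exon of *Evx1os*, on the opposite strand. The *Evx1os* stretch is chr6:52314833-52315082 on the minus strand and lies within the first intron of *Evx1*. Its capitals mark matches to the motifs described next.
Evx1: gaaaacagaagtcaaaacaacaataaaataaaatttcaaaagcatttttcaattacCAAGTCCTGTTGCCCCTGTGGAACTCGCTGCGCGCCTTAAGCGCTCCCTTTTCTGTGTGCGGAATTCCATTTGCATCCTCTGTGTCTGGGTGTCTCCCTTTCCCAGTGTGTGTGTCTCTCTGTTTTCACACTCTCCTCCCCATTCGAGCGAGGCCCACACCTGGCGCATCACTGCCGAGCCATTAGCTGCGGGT
Evx1os: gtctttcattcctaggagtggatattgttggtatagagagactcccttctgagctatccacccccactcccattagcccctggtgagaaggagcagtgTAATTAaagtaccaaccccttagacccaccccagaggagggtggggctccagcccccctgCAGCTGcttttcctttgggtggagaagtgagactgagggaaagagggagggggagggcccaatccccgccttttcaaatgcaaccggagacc

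A few short motifs were searched on both strands of the 250 bases before each start: TAATTA, bound by many homeodomain proteins, TNAAGTG, the core bound by Nkx2 factors, and CAGCTG, an E-box. The *Evx1os* stretch held 1 TAATTA, beginning 152 bases before the start, and 1 CAGCTG, beginning 92 bases before it. The stretches of *Evx1*, *Evx2*, *Skor1* and *Dbx1* held no match to any of them, and a window of *Skor2* was not used here. Among all 32851 RefSeq windows of the same length, 4.84% held TAATTA, 10.1% TNAAGTG and 13.0% CAGCTG. A match is a description of the letters and not a site.

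Values are normalized counts, the number of reads on a gene divided by a size factor of its library. All 210686 values above 0 in the table were whole multiples of the value of 1 read, within a tolerance of 0.001 of the value, so the reads behind each value are known. The reads on genes ranged from 1692963 to 5942192 per library. The libraries with the fewest were WT column 7, with 1692963, and Het column 4, with 2584074, and the other libraries held at least 4522261. The 6 genes together took 55 to 179 reads in a library and 957 reads over all 9 libraries, so single values carry a large counting error. Counting intervals in the text are exact Poisson intervals at 95% and cover counting error only.

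The labelled tissue carried its markers, with reads for 10 of 10 midbrain genes in the summed list, which reached 1475 to 2207 normalized counts in every library. The targeted gene, *Nkx2-9*, had 4, 6 and 3 reads in the libraries labelled KO, 0, 7 and 4 in Het and 0, 2 and 2 in WT. In normalized counts these were 3.01, 5.49 and 2.58 in KO, 0, 5.98 and 3.26 in Het, and 0, 1.40 and 1.47 in WT. On these few reads its level was not lower in the libraries labelled KO, and each of them was above every library labelled WT. KO, Het and WT mean the libraries so labelled throughout. Every direction given here rests on the labels, and if those of KO and WT were exchanged, each difference between them would change its sign. Whether they were was not tested. The X-inactivation RNA *Xist* ran from 4607 to 5182 in the KO libraries, and the summed level of 4 Y-linked genes there was at most 2.26. In WT the same Y-linked sum was 0, 505 and 1075, and in Het it was 606, 1058 and 3.26. The KO libraries thus held almost no Y-linked RNA, while WT columns 8 and 9 and Het columns 4 and 5 did. Sex and genotype can therefore not be fully told apart between KO and WT. In this bulk RNA, fewer cells of a type and less RNA per cell cannot be told apart.

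*Dbx1* (chromosome 7, 49631499 to 49636849, minus strand) was the only gene of the 6 with higher levels in the libraries labelled KO, or, were the labels exchanged, the only one with lower levels. Its reads were 57, 28 and 28 in the KO libraries, 15, 13 and 18 in Het and 6, 19 and 16 in WT. In normalized counts these are 42.9, 25.6 and 24.0 in KO, 24.4, 11.1 and 14.7 in Het, and 15.5, 13.3 and 11.8 in WT. Every KO library was above every WT library, and Het column 4 was level with the lower KO libraries. The means were 30.9 ± 10.5 (SD, n = 3) in KO, 16.7 ± 6.91 (SD, n = 3) in Het and 13.5 ± 1.88 (SD, n = 3) in WT. The log2 difference was 1.09 (SE 0.38) between KO and WT, 0.22 (SE 0.38) between Het and WT and 0.87 (SE 0.38) between KO and Het. KO column 1 was the highest of the 9 libraries, and without it the difference between KO and WT was 0.84.

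*Evx1*, the V0 determinant, had 8, 14 and 6 reads in KO, 23, 5 and 9 in Het and 17, 23 and 22 in WT. These correspond to normalized counts of 6.02, 12.8 and 5.15 in KO, 37.5, 4.27 and 7.34 in Het, and 44.0, 16.1 and 16.2 in WT. The KO libraries were all below the WT libraries. The Het libraries spanned nearly the whole range, with column 4 close to the highest WT library, column 6 among the KO libraries and column 5 the lowest of all 9. WT column 8 and KO column 2 were close in normalized counts, and their counting intervals, 10.2 to 24.2 and 7.0 to 21.5, overlapped. The mean was 7.99 ± 4.19 (SD, n = 3) in KO, 16.4 ± 18.4 (SD, n = 3) in Het and 25.4 ± 16.0 (SD, n = 3) in WT. The log2 difference from WT was -1.49 (SE 0.65) in KO and -0.99 (SE 0.65) in Het.

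*Evx1os*, the antisense RNA of the locus, showed the widest gap among the Evx genes between the libraries labelled KO and WT, on the log2 scale. It had 6, 8 and 2 reads in KO, 17, 5 and 10 in Het and 14, 24 and 35 in WT. As normalized counts the WT libraries were at 36.2, 16.8 and 25.8, Het at 27.7, 4.27 and 8.16, and KO at 4.52, 7.32 and 1.72. All values labelled KO were below all labelled WT, while the counting intervals of KO column 2, 3.16 to 14.4, and WT column 8, 10.8 to 25.1, overlapped. The Het libraries again reached from the KO range to the WT range. The log2 difference from WT was -2.38 (SE 0.61) in KO and -1.23 (SE 0.61) in Het, and between KO and Het it was -1.16 (SE 0.61).

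*Evx2* (chromosome 2, 74652991 to 74659557, minus strand), the paralog of *Evx1* beside the HoxD cluster, had the most reads of the 6 genes. It had 32, 45 and 13 reads in KO, 47, 24 and 30 in Het and 26, 70 and 67 in WT. The normalized counts were 24.1, 41.2 and 11.2 in KO, 76.6, 20.5 and 24.5 in Het, and 67.2, 49.1 and 49.3 in WT. KO column 2 lay just under the WT libraries, the other KO libraries well below them, and Het column 4 was the highest library of all. The mean was 25.5 ± 15.0 (SD, n = 3) in KO, 40.5 ± 31.3 (SD, n = 3) in Het and 55.2 ± 10.4 (SD, n = 3) in WT. The log2 difference from WT was -1.25 (SE 0.47) in KO and -0.67 (SE 0.47) in Het. The value between KO and WT was -0.77 without KO column 3 and -1.67 without KO column 2. The transcripts of *Evx1* and *Evx2* share no identical run over 32 bases, and their most similar ungapped stretch of 100 bases differs at 10 positions, so no read of 100 bases can be identical in both.

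*Skor1* (chromosome 9, 63138170 to 63148961, minus strand) had the fewest reads of the 6 genes. It had 0, 0 and 2 reads in KO, 11, 0 and 6 in Het and 11, 5 and 12 in WT. Its normalized counts were 0, 0 and 1.72 in KO, 17.9, 0 and 4.90 in Het, and 28.4, 3.51 and 8.83 in WT. KO column 3 alone carried its reads in that genotype, and Het column 5 was also at 0. A count of 0 allows up to 3 reads, a level of 2.26 in KO column 1, 2.74 in KO column 2 and 2.56 in Het column 5. The exact Poisson intervals of these zeros, which are two-sided, reach higher, to 2.78, 3.37 and 3.15. Summed over libraries, 2 reads in KO against 28 in WT give a rate ratio of 0.0631, with an exact counting interval of 0.00729 to 0.250 at 95%. Between Het and WT the ratio was 0.639 with an interval of 0.328 to 1.21. The fitted log2 difference between KO and WT, -2.97 (SE 1.03), depends on the pseudocount of 1 and is no bound, and with a pseudocount of 5 it was -1.52.

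*Skor2*, on chromosome 18 from 76856405 to 76900342 on the plus strand, was the flattest of the genes lower in KO. It had 10, 9 and 9 reads in KO, 11, 8 and 15 in Het and 5, 14 and 27 in WT. The normalized counts were 7.53, 8.23 and 7.73 in KO, 17.9, 6.83 and 12.2 in Het, and 12.9, 9.82 and 19.9 in WT. The KO libraries were nearly equal, the lowest WT library was just above them, and a Het library was below them. The log2 difference was -0.73 (SE 0.46) between KO and WT and -0.23 (SE 0.46) between Het and WT. Between KO and WT it was -0.48 without WT column 9 and -0.95 without WT column 8. The KO libraries lay closer together, at 7.83 ± 0.363 (SD, n = 3), than the counting error alone gives, which is 2.57.

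**Figure D2:**
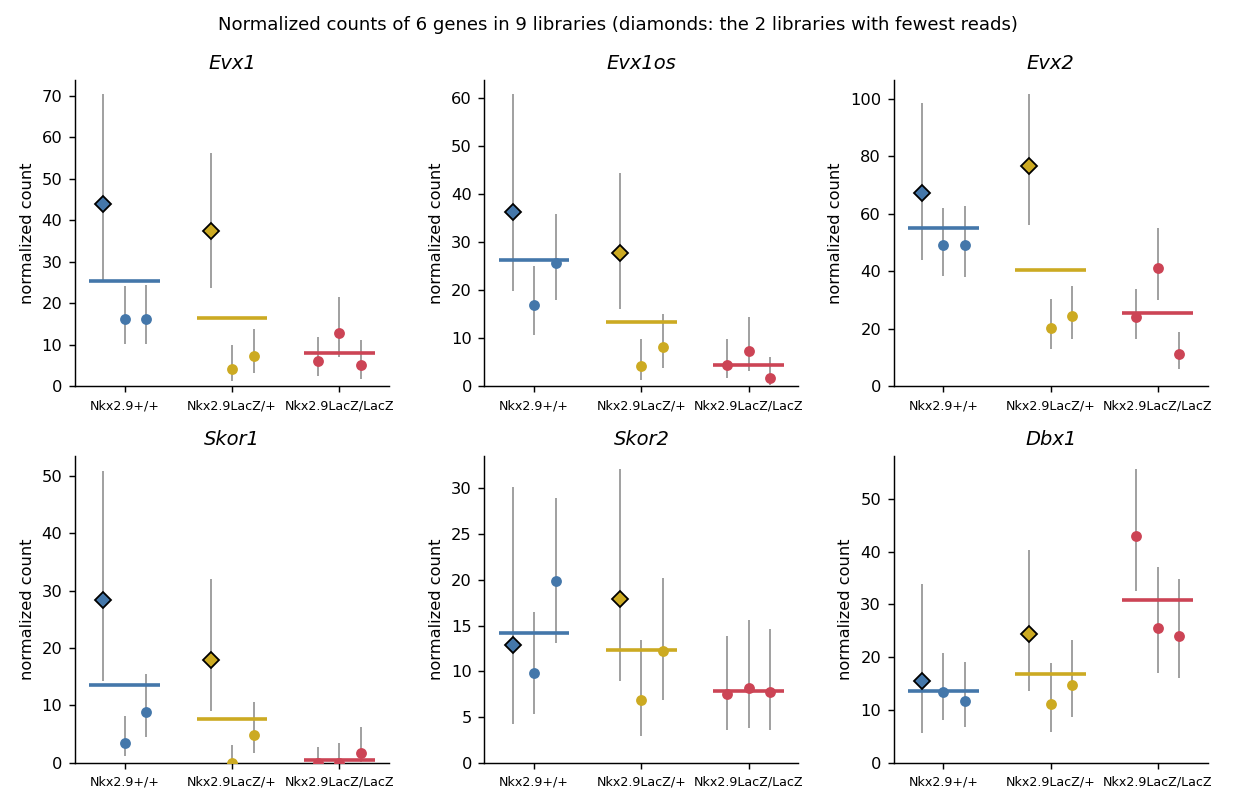
Normalized count (vertical axis, from 0) of each of the 6 genes in the 3 libraries of each genotype, with the exact Poisson 95% counting interval as a grey line and the mean of the genotype as a horizontal bar. Diamonds are the libraries with the fewest reads, WT column 7 and Het column 4, and in *Evx1*, *Evx1os*, *Evx2* and *Skor1* they are the highest points of their genotypes.

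KO and WT values did not overlap for any of the 6 genes, 5 lower and 1 higher in KO, and this contrast was in view when they were chosen. Among the 16993 genes tested, whose normalized counts averaged 5 or more, 4.43% were lower in every KO library than in every WT library and 5.08% were higher. By log2 difference, 4 genes were further down than *Skor1*, 6 than *Evx1os*, 32 than *Evx1*, 79 than *Evx2* and 415 than *Skor2*, and 337 were further up than *Dbx1*. The Het values overlapped with KO and with WT for each of the 6 genes. Each mean in Het lay between those of KO and WT, while column 4 was far above the other Het libraries for *Evx1*, *Evx1os*, *Evx2* and *Skor1*. Without it, the log2 difference between Het and WT went from -0.99 to -1.84 for *Evx1*, and that between KO and Het turned from -0.50 to 0.34. For *Evx1os* the same differences went from -1.23 to -1.91 and from -1.16 to -0.48, and for *Skor1* from -1.18 to -2.17 and from -1.79 to -0.80. For *Evx2* they went from -0.67 to -1.25 and from -0.57 to 0.00, and for *Skor2* from -0.23 to -0.53 and from -0.50 to -0.21. For *Dbx1* the difference between Het and WT turned from 0.22 to -0.07. Leaving out Het column 5 instead moved the difference between Het and WT the other way, to -0.40 for *Evx1*, -0.69 for *Evx1os*, -0.32 for *Evx2*, -0.05 for *Skor1*, 0.11 for *Skor2* and 0.47 for *Dbx1*.

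Per kilobase of exon, the order of the genes changed with genotype. In WT, *Evx2* was first at 13.2 normalized counts per kb, followed by *Evx1* at 8.84, *Evx1os* at 8.71, *Dbx1* at 6.48, *Skor2* at 4.52 and *Skor1* at 3.58. Of these neighbours, *Dbx1* and *Skor2* alone were further apart than the larger of their SDs. In KO, *Dbx1* came first at 14.8 normalized counts per kb, ahead of *Evx2* at 6.08, *Evx1* at 2.78, *Skor2* at 2.49, *Evx1os* at 1.5 and *Skor1* at 0.151. There the gaps after *Dbx1*, after *Skor2* and after *Evx1os* exceeded the larger SD, and those after *Evx2* and *Evx1* did not. In Het no gap between neighbours did, with *Evx2* at 9.67, *Dbx1* at 8.01, *Evx1* at 5.69, *Evx1os* at 4.43, *Skor2* at 3.93 and *Skor1* at 2.0 per kb. The mean of *Dbx1* was below those of all 3 Evx genes in WT and above them in KO. In WT columns 8 and 9, *Dbx1* was at 6.38 and 5.63 per kb and *Evx1* at 5.61 and 5.63, so the order of these genes in WT rests on column 7, where *Evx1* was at 15.3 and *Dbx1* at 7.42.

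The balance between the neuronal Evx genes and the progenitor gene *Dbx1* can be read within a library, where the size factor cancels out. For each *Dbx1* read there were 9.5, 6.16 and 7.75 reads of *Evx1*, *Evx1os* and *Evx2* together in WT, 5.8, 2.62 and 2.72 in Het, and 0.807, 2.39 and 0.75 in KO. The 3 genotypes did not overlap on this ratio, with Het between the others, but the gap between KO and Het was small. KO column 2, at 2.39, rests on 67 Evx and 28 *Dbx1* reads, and Het column 5, at 2.62, on 34 and 13. The highest WT value, 9.5, rests on 6 *Dbx1* reads. No counting interval was formed for this ratio, so the order of KO and Het is not secured. The means were 7.80 ± 1.67 (SD, n = 3) in WT, 3.71 ± 1.81 (SD, n = 3) in Het and 1.32 ± 0.932 (SD, n = 3) in KO. This ratio was formed after the values were seen, and it combines genes picked for opposite differences between KO and WT. Within the Evx reads, *Evx2* made up 45.6% to 59.8% in WT, 54.0% to 70.6% in Het and 61.9% to 69.6% in KO. *Evx1os* had 0.824, 1.04 and 1.59 reads per *Evx1* read in WT, 0.739, 1 and 1.11 in Het and 0.75, 0.571 and 0.333 in KO, so that Het overlapped with both.

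**Figure D3:**
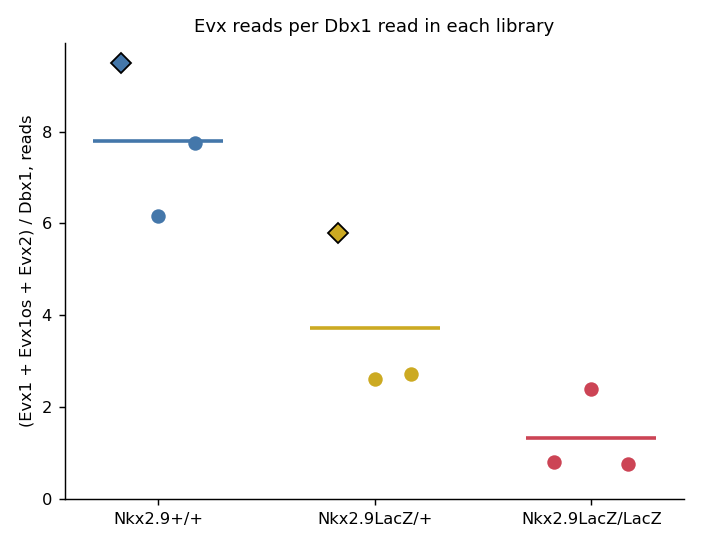
Reads of *Evx1*, *Evx1os* and *Evx2* together per read of *Dbx1* (vertical axis, from 0) in each library, with the mean of the genotype as a bar and the libraries with the fewest reads as diamonds. The WT libraries sit between 6.16 and 9.5, Het between 2.62 and 5.8 and KO between 0.75 and 2.39.

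The Evx genes followed each other closely from library to library. On the log2(normalized count + 1) scale, Pearson's r over the 9 libraries was 0.92 between *Evx1* and *Evx1os*, 0.92 between *Evx1* and *Evx2* and 0.95 between *Evx1os* and *Evx2*. With the genotype means taken out, these were 0.93, 0.89 and 0.96. *Skor1* followed *Evx1* with r = 0.82, or 0.74 about the genotype means, *Evx1os* with r = 0.82, or 0.62, and *Evx2* with r = 0.66, or 0.41. *Skor2* followed *Evx1* with r = 0.71, or 0.60, *Evx1os* with r = 0.82, or 0.71, and *Evx2* with r = 0.70, or 0.53. *Dbx1* went the other way or not at all over the 9 libraries, with r = -0.10 to *Evx1*, -0.35 to *Evx1os* and -0.16 to *Evx2*. About the genotype means those values were 0.66, 0.71 and 0.65, so that within a genotype a library high in Evx RNA was mostly also high in *Dbx1*. These are descriptions over 9 libraries that share their depth and size factors across genes.

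Depth moved with these levels. WT column 7 and Het column 4, with the fewest reads, held the 2 highest values of *Evx1*, *Evx1os*, *Evx2* and *Skor1*, that is 4 of the 6 genes. Of all 16993 tested genes 10.8% had their 2 highest values in these libraries, and of the 6539 genes whose mean was no higher than that of *Evx2*, 6.41% did. Over the 9 libraries, Pearson's r with log2 reads on genes was -0.75 for *Evx1*, -0.67 for *Skor1*, -0.56 for *Evx1os*, -0.55 for *Evx2*, -0.35 for *Skor2* and -0.03 for *Dbx1*. About the genotype means these values were -0.79, -0.70, -0.61, -0.53, -0.23 and -0.45, in the same order. Without these libraries the log2 differences between KO and WT were -1.03 (SE 0.51) for *Evx1*, -2.13 (SE 0.57) for *Evx1os*, -1.10 (SE 0.38) for *Evx2*, -2.25 (SE 0.94) for *Skor1*, -0.77 (SE 0.48) for *Skor2* and 1.19 (SE 0.37) for *Dbx1*. With log2 *Xist* as a covariate in the fit they ran from -3.39 for *Skor1* to 1.01 for *Dbx1*.

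**Figure D4:**
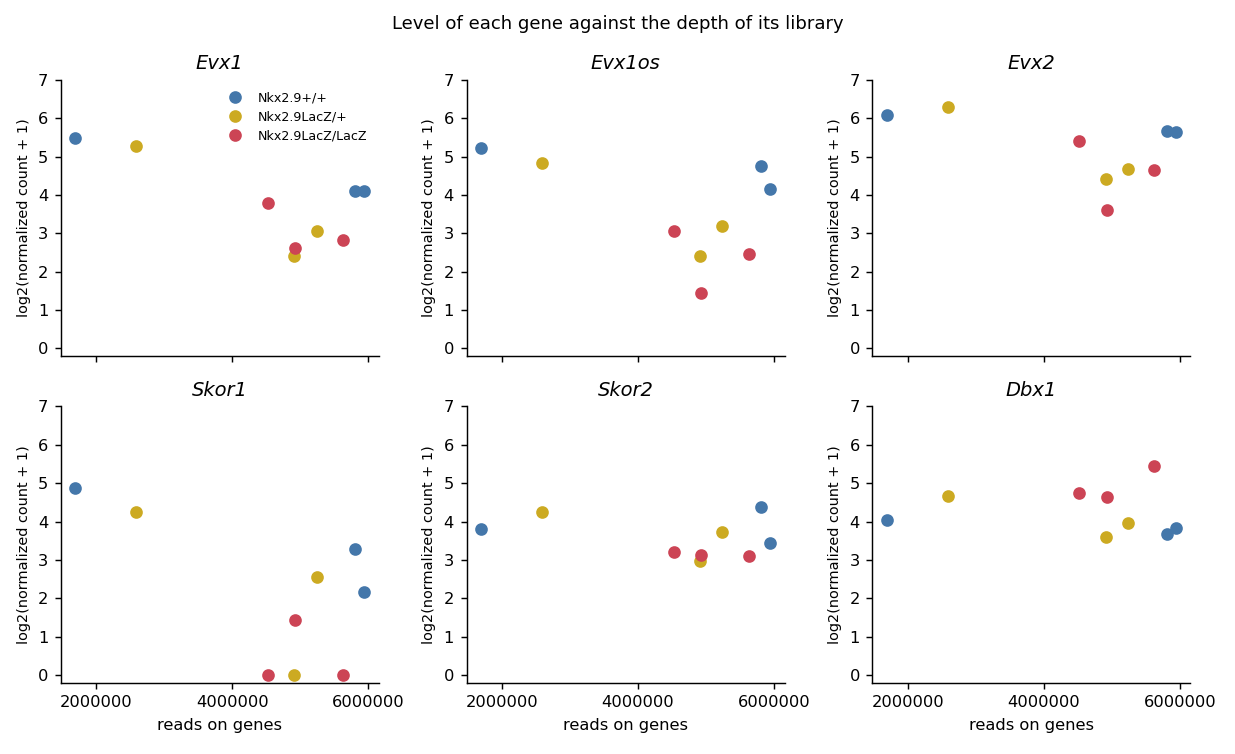
Level of each gene, as log2(normalized count + 1), against the reads on genes of its library, coloured by genotype. WT column 7, with 1692963 reads, and Het column 4, with 2584074, stand at the top left for *Evx1*, *Evx1os*, *Evx2* and *Skor1*, and no KO library has such a depth.

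Some markers of the midbrain and of neighbouring regions moved with the Evx genes across the labelled genotypes and others did not. The summed level of 3 serotonergic genes of the rostral hindbrain, each with reads, was 93.1, 48.4 and 77.3 in WT. It was 60.3, 53.8 and 27.7 in Het, and 39.9, 35.7 and 17.2 in KO, so KO and WT did not overlap. Of single tested genes, 4.43% were lower in every KO library than in every WT library. Within the sum *Fev* overlapped, at 3.01, 3.66 and 5.15 in KO and 10.3, 4.21 and 5.89 in WT. *En1*, a gene of the midbrain and isthmus, was at 274, 225 and 322 in WT, 407, 202 and 172 in Het, and 157, 188 and 194 in KO. *Pax7*, a gene of the dorsal midbrain, was at 318, 254 and 221 in WT, 300, 176 and 198 in Het, and 156, 229 and 135 in KO. Its KO and WT values overlapped. *En1* and *Pax7*, like the Evx genes, had their Het maximum in column 4. Of the 10 midbrain genes, 4 had a lower mean in KO than in WT, *En1*, *En2*, *Pax7* and *Pitx3*, and 6 a higher one, among them *Lmx1a* at 107 against 86.9 and *Nr4a2* at 346 against 300.0. The midbrain sum was 1605, 1709 and 1527 in KO and 1696, 1849 and 1834 in WT, so that the genotypes overlapped. The sum of 9 isthmus genes was 1156 ± 208 (SD, n = 3) in KO and 1187 ± 122 (SD, n = 3) in WT, with 3 genes higher and 6 lower in mean in KO. Of 12 Hox genes of the caudal hindbrain and spinal cord, 9 had no read in any library, and their sum was 0 in every Het and WT library and at most 2.74 in KO. The cerebellar genes *Atoh1* and *Ptf1a* had no read in any library, and the sum of 6 cerebellar genes was 484 to 548 in WT and 417 to 548 in KO. Most of that sum was *Barhl1*, with a mean of 259 over all libraries, and *Rora*, with 216. *Barhl1* is also in the list of dorsal interneuron genes, so the sum is no measure of cerebellar tissue. Blood genes were highest in the libraries with the fewest reads, at 2249 in Het column 4 and 2165 in WT column 7, against 1479 to 1881 in the others. Choroid plexus genes were at 75.0 in WT column 7 and at most 36.1 elsewhere. The sum of 7 forebrain genes was 268 to 341 in WT and 271 to 338 in KO, but single genes were uneven. In Het column 4, *Dlx1*, *Dlx2*, *Dlx5* and *Gbx2* had no read, while *Emx1*, *Emx2* and *Six3* were at 16.3, 89.6 and 161. *Dlx1* was also low in WT column 9, at 4.42, and in KO column 2, at 11.9. *Th* was at 187 in Het column 4 and at 51.2 to 100 in the other libraries. The part of these markers in the levels of the 6 genes was not tested.

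The genes whose pattern was most like that of the 6 were found by Pearson's r with the mean of their standardized profiles over the 9 libraries. The 10 closest were *Tcf3*, *Tmem101*, *Irx1*, *Mmp15*, *Thra*, *Rnf126*, *Bag6*, *Med22*, *Traf4* and *Gar1*, with r from 0.93 to 0.97. Their mean levels ran from 37.7 to 1612.8 normalized counts, and 9 of the 10 had their 2 highest values in WT column 7 and Het column 4. For a profile of *Evx1*, *Evx1os*, *Evx2* and *Skor1* alone, chosen after the values were seen, *Cldn23*, *Bmp1*, *Letm1* and *Pax7* were closest, with r from 0.94 to 0.97, and all 10 of its 10 closest genes had their 2 highest values in WT column 7 and Het column 4. In all, 35 of 16987 genes, or 0.206%, had an r above 0.9 with that profile.

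The other genes of V0 and neighbouring neuron classes were read from 5 lists of 49 genes, and 37 averaged 5 normalized counts or more. The lists were made without the 6 genes and without genes that the study itself lists as changed in these libraries. The number called among the 37 is therefore not an unbiased count for these neuron classes. None of the 37 was called in any of the 3 comparisons by limma, at an unadjusted p under 0.05 or after Benjamini-Hochberg adjustment over all genes. Of all 16993 genes, 441 (2.60%) were called at the unadjusted threshold between KO and WT, 473 (2.78%) between Het and WT and 449 (2.64%) between KO and Het, and 0 (0%) after adjustment in each. After adjustment edgeR called no gene either, with 421, 372 and 451 at the unadjusted threshold, and DESeq2 called only *Gm23287*, between Het and WT, with 316, 264 and 323 unadjusted. The edgeR quasi-likelihood test called 1 of the 37 between KO and WT, 1 between Het and WT and 0 between KO and Het, and DESeq2 called 1, 0 and 0, none of them after adjustment. The median log2 difference of the 37 genes was -0.04 between KO and WT, -0.01 between Het and WT and -0.03 between KO and Het, beside 0.01, -0.01 and 0.02 over all genes tested.

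Among factors of progenitor domains, 8 of 9 genes were measured, and none was called. *Irx3*, which sets the position of ventral progenitor domains, had the lowest log2 difference of all related genes between KO and WT, -0.57 (SE 0.27, unadjusted p = 0.0533, adjusted p = 1.00 by limma). Its normalized counts were 100, 71.3 and 78.2 in KO, 132, 54.6 and 84.0 in Het and 98.3, 118 and 160 in WT, with an overlap of KO and WT in 1 library each. It is the gene that edgeR and DESeq2 called between KO and WT. *Dbx2*, the relative of *Dbx1* in the adjoining progenitors, was at 6.02, 8.23 and 8.59 in KO and 20.7, 4.21 and 8.10 in WT, a log2 difference of -0.24 (SE 0.53).

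Of 6 genes of V0 and commissural differentiation, 5 were measured and none was called. *Lhx1* and *Lhx5*, LIM homeobox genes shared by several early interneuron classes, differed between KO and WT by -0.07 (SE 0.12) and -0.17 (SE 0.16) in log2. *Dcc*, the netrin receptor of crossing axons, differed by -0.01 (SE 0.14). All of these had standard errors below that of any of the 6 chosen genes.

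Of the genes for other ventral interneuron classes 7 of 11 were measured. *Gata3* and *Tal1*, genes of V2b neurons in the cord, differed by -0.05 (SE 0.12) and -0.00 (SE 0.13) in log2 between KO and WT. *Sim1*, of the V3 class, had the highest difference of the related genes, 0.34 (SE 0.25, unadjusted p = 0.191, adjusted p = 1.00 by limma). *Vsx1* and *Lhx3* had no read in any library.

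Of 16 genes of dorsal interneuron classes 10 were measured and none was called. *Lbx1*, whose protein binds Skor1 in the spinal cord, had no read in any of the 9 libraries, WT included, and *Tlx1* had none either. *Barhl1*, a gene of dorsal neurons, differed by -0.30 (SE 0.15) in log2 between KO and WT. All 7 of the Ski family and Smad genes were measured. *Ski* and *Skil*, the nearest relatives of *Skor1* and *Skor2*, were at 386 to 541 and 554 to 742 normalized counts, and differed between KO and WT by -0.17 (SE 0.12) and 0.08 (SE 0.13) in log2.

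**Figure D5:**
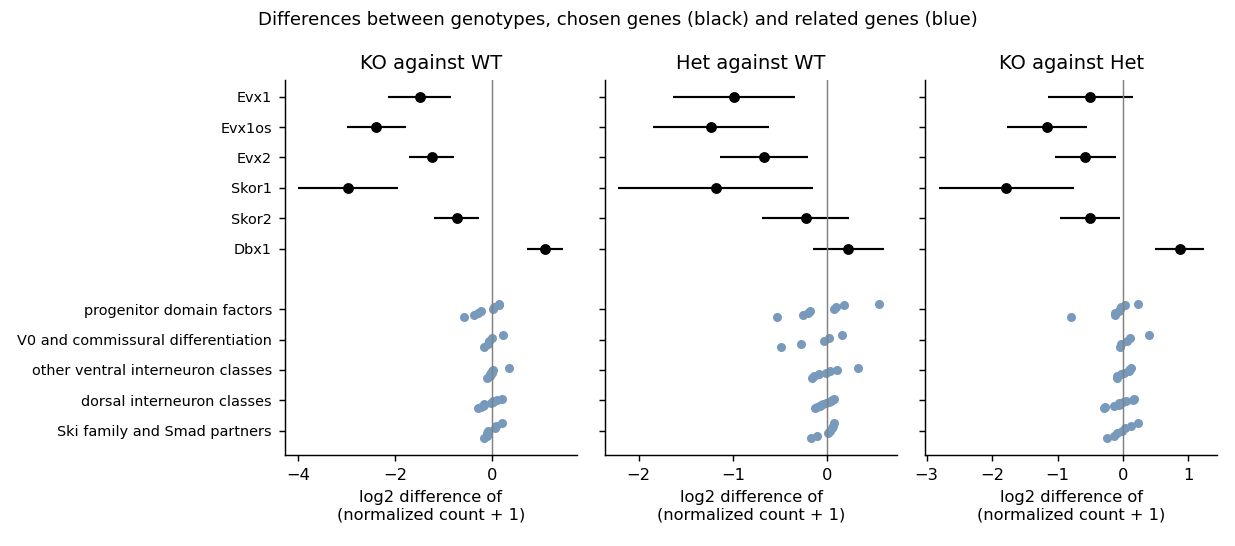
Log2 difference of (normalized count + 1) between genotypes (horizontal axis, first-named minus second-named) for the 6 chosen genes in black, with the standard error as a bar, and for the 37 measured related genes in blue by list, 1 point each. Between KO and WT the chosen genes lie from -2.97 to 1.09 and the related genes from -0.57 to 0.34.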

How the data were processed

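RNA of E14.5 midbrains was depleted of ribosomal RNA and sequenced as 100-base paired ends. The authors aligned reads with Hisat2 to GRCm38/mm10, counted them with featureCounts and divided by DESeq2 size factors, and the deposited signal is this normalized count. Versions, annotation and strand setting are not given in the sources used here. Reads were recovered as whole multiples of the value of 1 read (100% of 210686 values). The authors' 3 tables of DESeq2 comparisons hold fold changes and p-values and were not used.

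Names, positions and exon lengths came from GENCODE M21, which matched 51633 of 51912 identifiers, and start-site windows from RefSeq, used here for 5 of the 6 genes. Per-kilobase levels divide by the union of exons. Differences were fitted with limma 3.58.1 in R 4.3.3, with a mean-variance trend, on log2(normalized count + 1), for genes with a mean of at least 5, with the 9 libraries in 1 fit and no covariate. Two-sided tests used Benjamini-Hochberg adjustment over 16993 genes. A gene was called at an unadjusted p under 0.05. The script was tested on simulated data. Figures used matplotlib 3.10.9 in Python 3.11.15.

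The members and lists were chosen with earlier results of these data known. Named genes are the 6 genes, *Nkx2-9*, *En1*, *Pax7*, marker genes, the 10 genes of most similar profile and related genes called. Other related genes are named by their role or as extremes of their list, after their values were seen. A few genes of these lists are not reported here by themselves. The alternatives were other pseudocounts, count minimums and scalings, edgeR 4.0.16, DESeq2 1.42.0, covariates, subsets of libraries and leaving out each library. Leaving out the 2 libraries with the fewest reads was chosen after seeing the data. With 3 libraries per genotype and 1692963 to 5942192 reads on genes per library, both the spread between libraries and counting error limit the precision.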

Additional observations from a re-analysis of the deposited data

How the results depend on the processing

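No paired analysis was possible because the columns carry no replicate numbers. The sign of the difference between KO and WT was kept by each of the 6 genes in each alternative that gave a value, while with a minimum mean of 20 only *Evx2* and *Dbx1* could be fitted. Of the 128 values of the 6 genes per comparison under alternatives, 127 between KO and WT, 125 between Het and WT and 123 between KO and Het kept their sign and moved by less than the spread between libraries. The sign turned in 4 values between KO and Het and in 3 between Het and WT. Between KO and Het these were *Evx1*, 0.34 without Het column 4 or without the 2 libraries with fewest reads, and *Evx2*, 0.0020 in the same settings, and between Het and WT *Dbx1* and *Skor2*. Leaving out each library in turn gave -1.09 to 0.34 for this value of *Evx1*, -0.998 to 0.0020 for that of *Evx2*, -0.070 (without Het column 4) to 0.47 for *Dbx1* between Het and WT, and -0.53 to 0.11 (without Het column 5) for *Skor2* between Het and WT, which was 0.03 without WT column 9. DESeq2 gave *Skor1* a log2 difference of -4.55 between KO and WT and -3.72 between KO and Het, in a gene with 2 KO reads.

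None of the related genes was called by the main test, and this count moved. Between KO and WT, 1 was called with a pseudocount of 5, with upper-quartile scaling, with quantile normalization, by edgeR, by DESeq2 and with log2 total reads as a covariate, and in each of these it was *Irx3*, lower in KO. With no minimum count 2 were called there, *Foxd3* and *Irx3*, with only the 6 libraries compared 3, *Barhl1*, *Irx3* and *Irx5*, and without the 2 libraries with fewest reads 4, those 3 and *Sox21*, all lower in KO. Between Het and WT 3 were called with no minimum count, *Bhlhe22*, *Foxd3* and *Irx3*, 1 by edgeR, *Irx3*, 1 with log2 total reads as a covariate, *Bhlhe22*, and 5 without the 2 libraries with fewest reads, *Irx3*, *Irx5*, *Lhx5*, *Pax6* and *Sox21*. Between KO and Het 1 was called without those libraries, *Lhx2*. Leaving out each library in turn gave 0 to 3 calls between KO and WT, with 3 without Het column 4, 0 to 5 between Het and WT, with 5 without Het column 4, and 0 to 2 between KO and Het, with 2 without Het column 5. None of these calls passed adjustment over all genes. The cause of these moves was not tested. *Skor1*, with 47 reads in all, and *Skor2*, with 108, are limited by depth.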
